A study of Mus musculus with 8 samples.

Results

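A set of 9 genes that mark megakaryocytes and platelets was followed in mouse femoral shaft bone: Pf4 and Ppbp, which encode chemokines stored in platelet granules, Gp1ba, Gp1bb, Gp9 and Gp5, which encode the von Willebrand factor receptor, Itga2b and Itgb3, which encode the fibrinogen receptor, and Treml1, which encodes a receptor of the granule membrane. They were chosen by name for these roles, with earlier results of these data known, and are 9 of the 49315 gene IDs in the count table. All 9 passed the low-count filter, which left 17450 genes for testing. Bone came from 4 mice homozygous for a deletion of Girk3 (KO, labelled Girk3-/-) and 4 wild-type mice (WT). Every mouse was a male of 24 weeks with the strain label C57BL6. The ends of each femur were cut away and the shaft was rinsed with saline to remove marrow before RNA was taken from the homogenised bone. Girk3, gene symbol Kcnj9, encodes a subunit of the potassium channels that G protein-coupled receptors open. The labels give neither the part of the gene that was deleted nor the cells that lost it, and they name no agent. Each library was taken as 1 mouse, as the labels state 4 mice per group.

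Megakaryocytes are large polyploid cells of the bone marrow that grow under thrombopoietin and shed platelets into marrow sinusoids. Their late genes are switched on together by GATA1 with its partner FOG1 and by ETS family factors such as FLI1, and the same transcripts are carried into platelets. In bone, megakaryocytes lie next to the vessels and the inner bone surface, and they release growth factors and chemokines that are known to act on osteoblasts and osteoclasts.

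The start regions of the genes were read for the words to which these factors bind. RefSeq start regions on build GRCm38.p6, from 250 bases before the start to 50 bases after it, were available for 8 of the 9 genes, all but Itgb3. On either strand, a GATA word (AGATAA or TGATAA) was found in 3 of the 8, in Pf4, Gp1ba and Gp5, against 18.6% of the 32851 mouse promoters of the same length. The only GATA word of Pf4 began 36 bases after the start, while those of Gp1ba and Gp5 lay before the start. An ETS word (AGGAAG or CGGAAG) was found in 6 of the 8, all but Ppbp and Treml1, against 46.5% of mouse promoters. The same 3 genes held both kinds of word, against 7.7% of mouse promoters, and no GATA word overlapped an ETS word in these genes. The sequences of those 3 genes and of Ppbp, the neighbour of Pf4 that held neither word, are printed 5′ to 3′ on the gene's own strand, with the words in capitals in the orientation in which they occur. Pf4 is at chr5:90772185-90772484 (plus strand), Ppbp at chr5:90768268-90768567 (plus strand), Gp1ba at chr11:70638872-70639171 (plus strand) and Gp5 at chr16:30310732-30311031 (minus strand). These matches describe letters in the window and say nothing of binding in these samples.
Pf4: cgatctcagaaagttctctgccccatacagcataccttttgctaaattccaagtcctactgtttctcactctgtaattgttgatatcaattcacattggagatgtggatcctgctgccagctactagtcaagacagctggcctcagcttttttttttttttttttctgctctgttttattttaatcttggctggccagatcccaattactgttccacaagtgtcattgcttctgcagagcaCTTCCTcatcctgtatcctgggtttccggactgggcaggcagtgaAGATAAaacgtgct
Ppbp: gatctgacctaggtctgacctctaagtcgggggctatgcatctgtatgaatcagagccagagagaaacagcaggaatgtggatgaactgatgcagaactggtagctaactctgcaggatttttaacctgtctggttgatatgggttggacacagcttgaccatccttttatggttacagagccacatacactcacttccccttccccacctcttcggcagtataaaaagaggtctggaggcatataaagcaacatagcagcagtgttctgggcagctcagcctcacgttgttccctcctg
Gp1ba: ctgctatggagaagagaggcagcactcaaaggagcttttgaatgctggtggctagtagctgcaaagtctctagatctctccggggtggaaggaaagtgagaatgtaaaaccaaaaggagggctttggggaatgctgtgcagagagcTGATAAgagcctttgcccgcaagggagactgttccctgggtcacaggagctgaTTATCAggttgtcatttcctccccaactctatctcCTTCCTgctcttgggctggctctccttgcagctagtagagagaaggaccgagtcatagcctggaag
Gp5: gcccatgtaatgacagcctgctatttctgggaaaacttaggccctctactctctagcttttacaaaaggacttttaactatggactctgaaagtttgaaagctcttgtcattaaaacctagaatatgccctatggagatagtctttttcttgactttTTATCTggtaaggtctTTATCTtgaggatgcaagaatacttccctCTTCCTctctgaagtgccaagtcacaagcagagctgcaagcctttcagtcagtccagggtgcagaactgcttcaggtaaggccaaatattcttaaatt

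The libraries held 30087749 to 36553713 counts. Library totals averaged 31832100 ± 651212 in KO bone and 33473300 ± 2747690 in WT bone (SD, n = 4 each; two-sided exact permutation p = 0.314, with 0.0286 the smallest p that 70 arrangements allow). Kcnj9 itself was too scarce to check the labels, with 0, 8, 4 and 7 counts in the KO libraries and 7, 6, 6 and 23 counts in the WT libraries. Libraries are named by the replicate numbers of the labels, and levels are in CPM, counts scaled to library size with edgeR's TMM factors. KO replicate 4 and WT replicate 4 stood at opposite ends of the first principal component of all genes, at 60.5 and -53.5, with the other 6 libraries between -14.7 and 20.1. All 13 markers of osteoblasts and osteocytes were present at a median of at least 1 CPM. Blood and marrow genes were present as well in every library. Skeletal muscle genes were more abundant than the bone markers: 14 muscle markers summed to 74004 to 193189 CPM per library, and the 13 bone markers to 9128 to 22022 CPM. In bulk RNA, fewer megakaryocytes or platelets and less RNA per cell cannot be told apart.

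The 9 genes did not separate KO from WT bone. They varied several-fold between mice of the same genotype, and for 6 of 9 genes the highest library held at least 4 times the level of the lowest, as for 12.2% of all genes. They also varied together: KO replicate 4 was the lowest library for 9 of 9 genes, and WT replicate 4 was the highest for 6 of 9. The remaining 3, Pf4, Itgb3 and Treml1, peaked in KO replicate 2.

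The chemokines are the most abundant cargo of this set. Pf4 (ENSMUSG00000029373, chr5:90772435-90773383, GRCm38), platelet factor 4, binds heparin and holds megakaryocyte growth in check. It stood at 131, 149, 113 and 31.8 CPM in KO replicates 1 to 4, against 45.5, 53.8, 36.1 and 139 CPM in WT replicates 1 to 4. The KO libraries were therefore high except for replicate 4, the WT libraries were low except for replicate 4, and the groups overlapped. Ppbp (ENSMUSG00000029372, chr5:90768518-90770063), pro-platelet basic protein, is the precursor of a chemokine that draws neutrophils. It stood at 277, 323, 264 and 69.4 CPM in KO replicates 1 to 4, against 136, 181, 114 and 415 CPM in WT replicates 1 to 4. The order of the libraries was close to that of Pf4, but WT replicate 4 was above every KO library, and the groups overlapped.

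The 4 genes of the von Willebrand factor receptor were lower. Gp1ba (ENSMUSG00000050675, chr11:70639122-70642036) encodes the chain that binds von Willebrand factor. It stood at 16.4, 20.6, 15.8 and 10.05 CPM in KO replicates 1 to 4, against 15.3, 16.1, 11.9 and 29.1 CPM in WT replicates 1 to 4. Apart from the high value of WT replicate 4 and the low value of KO replicate 4, both genotypes lay close together. Gp1bb (ENSMUSG00000050761, chr16:18620317-18622403) encodes the chain that is disulfide-linked to it. It stood at 35.2, 37.7, 33.1 and 8.57 CPM in KO replicates 1 to 4, against 15.1, 19.3, 12.2 and 47.0 CPM in WT replicates 1 to 4. Its exons lie for 1902 of 2087 bases within exons of Sept5 and for 867 within exons of Gm49601. Both lie on the same strand as Gp1bb, so reads of these genes may be shared or dropped. Sept5, a septin, stood at 25.0, 19.3, 24.3 and 15.7 CPM in KO replicates 1 to 4, against 22.8, 27.8, 20.6 and 32.2 CPM in WT replicates 1 to 4, a flatter pattern than that of Gp1bb.

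Gp9 (ENSMUSG00000030054, chr6:87778072-87779768) encodes a small chain needed to bring the receptor to the surface. It stood at 25.1, 27.1, 18.9 and 7.77 CPM in KO replicates 1 to 4, against 11.4, 14.5, 10.8 and 30.4 CPM in WT replicates 1 to 4. Gp5 (ENSMUSG00000047953, chr16:30307685-30310779) encodes the subunit that thrombin cleaves. It stood at 30.5, 41.5, 31.1 and 9.55 CPM in KO replicates 1 to 4, against 17.5, 19.6, 12.5 and 46.0 CPM in WT replicates 1 to 4. For both genes WT replicate 4 and KO replicate 2 were the highest libraries and WT replicate 3 and KO replicate 4 the lowest, and the groups overlapped.

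Itga2b (ENSMUSG00000034664, chr11:102453297-102470122) encodes the alpha IIb chain, which is made by megakaryocytes and their progenitors. It stood at 219, 244, 156 and 81.8 CPM in KO replicates 1 to 4, against 122, 139, 110 and 277 CPM in WT replicates 1 to 4. Itgb3 (ENSMUSG00000020689, chr11:104608000-104670476) encodes the beta 3 chain, which also pairs with alpha V and is in that form abundant on osteoclasts. It stood at 167, 243, 178 and 57.6 CPM in KO replicates 1 to 4, against 111, 117, 85.6 and 235 CPM in WT replicates 1 to 4. The libraries of Itgb3 fell in nearly the same order as those of Itga2b, and the part of osteoclasts in its level was not tested. Treml1 (ENSMUSG00000023993, chr17:48359916-48367176) encodes a granule membrane protein that appears on activated platelets. It stood at 39.0, 54.0, 33.5 and 10.4 CPM in KO replicates 1 to 4, against 19.3, 23.8, 16.6 and 50.3 CPM in WT replicates 1 to 4. KO replicates 1 to 3 were again above WT replicates 1 to 3, and the replicates numbered 4 crossed over.

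**Figure D1:**
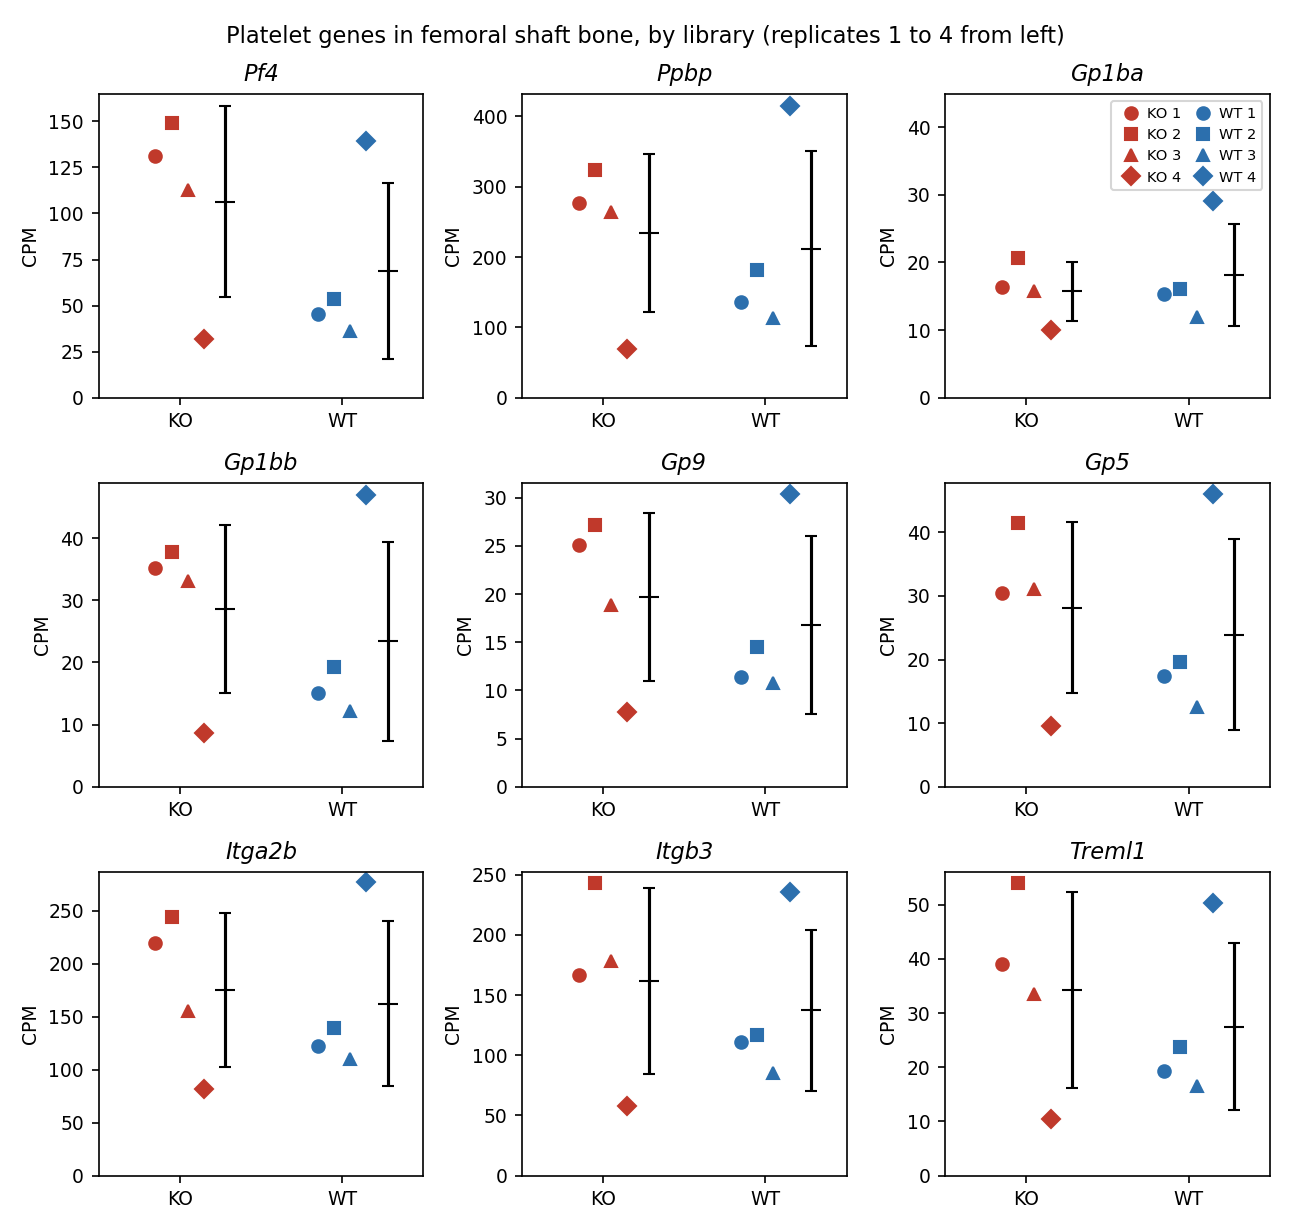
Level of each of the 9 platelet genes (CPM, linear axis from 0) in the 4 KO libraries (red) and the 4 WT libraries (blue), with the group mean and SD in black. KO replicate 4 is the lowest library in all 9 panels, WT replicate 4 is the highest in 6, and the groups overlap in every panel.

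Levels of different genes were compared per kilobase of exon. Ppbp was the most abundant, at 216 ± 104 CPM per kb in KO bone and 195 ± 128 in WT bone (SD, n = 4 each), and it exceeded Pf4 in 8 of 8 libraries. Pf4 followed at 148 ± 71.9 CPM per kb in KO bone and 95.3 ± 66.1 in WT bone, and it exceeded Itga2b in 8 of 8 libraries, by 2.49-fold or more. Itga2b, at 32.1 ± 13.3 CPM per kb in KO bone and 29.7 ± 14.2 in WT bone, was above Itgb3 in 7 of 8 libraries. Itgb3 was above Treml1 in 8 of 8, but in 1 library by a ratio of only 1.02. Treml1 and Gp9 had no fixed order, with Treml1 above in 5 of 8 libraries, and the same held for Gp1bb over Gp5. Gp9 was above Gp1bb in 8 of 8 libraries, though the level of Gp1bb may depend on how reads shared with overlapping genes were counted. Gp1ba was the least abundant, at 5.78 ± 1.60 CPM per kb in KO bone and 6.66 ± 2.78 in WT bone, below Gp5 in 8 of 8 libraries. The chain that carries the ligand site of the receptor was thus the scarcest of its 4 transcripts in every library.

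No member was called between KO and WT bone by the quasi-likelihood test of edgeR at an adjusted p under 0.05 (Benjamini-Hochberg over 17450 genes). The background in that comparison was 2 genes, or 0.0115% of those tested, so a count of 0 of 9 says little about these genes in particular. At an unadjusted p under 0.05 the count was also 0 of 9, where 18.2% of all genes passed. DESeq2, which called 6.48% of the genes it tested, and limma-voom, which called 4.04%, each called 0 of the 9. The levels of KO and WT bone overlapped for 9 of 9 genes, while 13.1% of all genes had groups that did not overlap. The median log2 fold change of the 9 was 0.24, against -0.01 for all genes tested.

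The intervals were wide. Pf4 averaged 106 ± 51.9 CPM in KO bone and 68.7 ± 47.7 CPM in WT bone (SD, n = 4 each), a log2 fold change of 0.63 with a 95% interval of -0.49 to 1.75 (edgeR, adjusted p = 0.555). Ppbp averaged 234 ± 112 CPM in KO bone and 212 ± 139 CPM in WT bone, a log2 fold change of 0.14 with an interval of -0.96 to 1.24 (edgeR, adjusted p = 0.915). Gp1ba, the only member with a negative estimate, averaged 15.7 ± 4.36 CPM in KO bone and 18.1 ± 7.55 CPM in WT bone, a log2 fold change of -0.20 with an interval of -0.84 to 0.43 (edgeR, adjusted p = 0.759). The other 6 had log2 fold changes between 0.11 for Itga2b and 0.31 for Treml1. With 1 library left out Treml1 ranged from 0.0074 to 0.78, and Pf4 from 0.42 to 1.23, highest without WT replicate 4 (edgeR, adjusted p = 0.229). A doubling in KO bone, 1 on the log2 scale, lay inside the interval of every member except Gp1ba and Itga2b.

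The estimates turned on 2 libraries. Without KO replicate 4 and WT replicate 4 together, edgeR called 7 of the 9 genes higher in KO bone, against 1.61% of 17491 genes called in that direction and 2.62% called in all. In that fit the log2 fold changes were 1.54 for Pf4 (adjusted p = 0.00939), 1.00 for Ppbp (adjusted p = 0.0373) and 1.19 for Gp1bb (adjusted p = 0.0246). The other 4 called genes, Gp9, Gp5, Itgb3 and Treml1, had log2 fold changes of 0.91 to 1.08. Itga2b at 0.74 (edgeR, adjusted p = 0.0529) and Gp1ba at 0.29 (edgeR, adjusted p = 0.308) were not called. KO replicates 1 to 3 were all above WT replicates 1 to 3 for 8 of the 9 genes, a pattern held by 15.5% of all genes. The exception was Gp1ba, where 15.8 CPM in the lowest of those KO libraries stood against 16.1 CPM in the highest of those WT libraries. For each of the 9 genes, the libraries left out are the lowest KO library and the highest WT library, so leaving them out raises the difference by construction. The 9 genes also moved together (median pairwise r of 0.97), so these counts do not stand for 9 independent genes. With any 1 library left out, edgeR called 0 of the 9, against 0.0112% to 0.0224% of all genes. The median log2 fold change of the members lay between -0.01 and 0.70 over the 8 fits that each dropped 1 library.

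**Figure D2:**
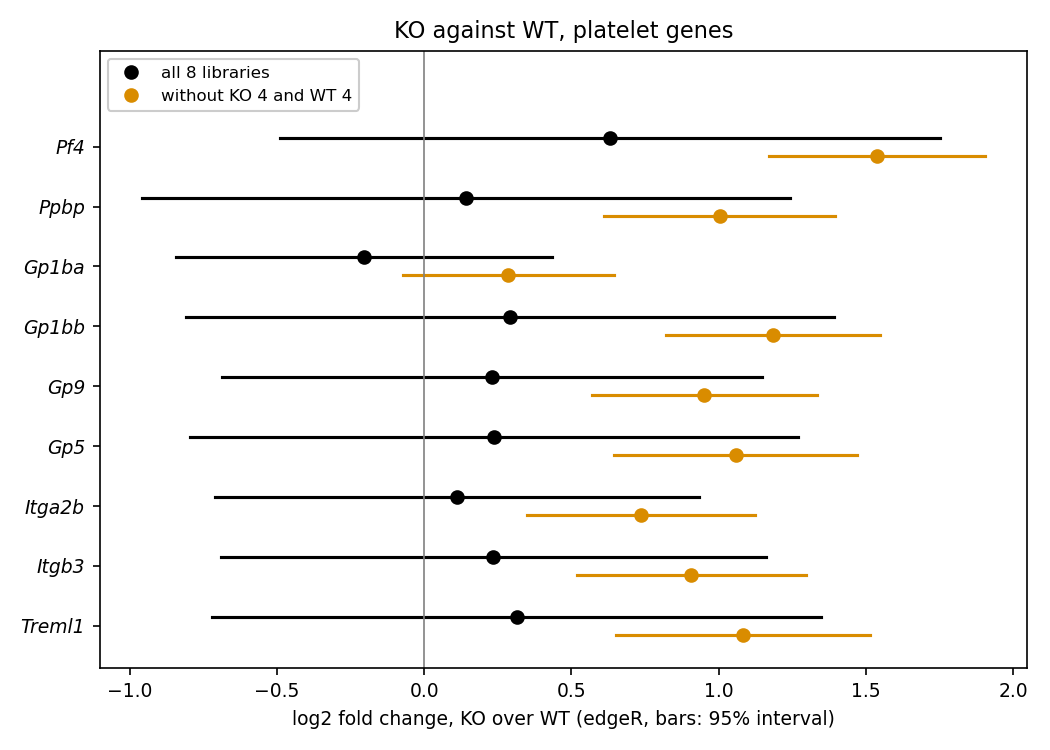
Log2 fold change of KO over WT bone for the 9 platelet genes (edgeR; horizontal bars are 95% intervals), from all 8 libraries in black and without KO replicate 4 and WT replicate 4 in orange. With all libraries every interval spans 0, and without those libraries the estimates range from 0.29 for Gp1ba to 1.54 for Pf4.

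Some sums of marker genes of other cells also had an extreme in KO replicate 4 or WT replicate 4. The summed level of the 9 platelet genes was 941, 1141, 844 and 287 CPM in KO replicates 1 to 4, against 494, 584, 410 and 1270 CPM in WT replicates 1 to 4. The summed level of 15 neutrophil markers, all detected, was 7791, 3869, 6642 and 815 CPM in KO replicates 1 to 4, against 2372, 3470, 1629 and 5750 CPM in WT replicates 1 to 4. Both sums were lowest in KO replicate 4, but the neutrophil sum was highest in KO replicate 1 rather than WT replicate 4. The summed level of 15 erythroid markers, all detected, was 9232, 10260, 5166 and 6387 CPM in KO replicates 1 to 4, against 5085, 4461, 8917 and 13484 CPM in WT replicates 1 to 4. Erythroid genes were highest in WT replicate 4 too, yet KO replicate 4 was not their lowest library. The summed level of 14 skeletal muscle markers, all detected, ran the other way at the extremes, at 122940, 116383, 147577 and 193189 CPM in KO replicates 1 to 4, against 123002, 130083, 137090 and 74004 CPM in WT replicates 1 to 4.

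None of the 10 marker sums passed a test between the genotypes (two-sided exact permutation p = 0.343 or more, adjusted p = 1.0 over 10 lists). Macrophage and T and NK cell markers had both extremes in the same libraries as the platelet sum, lowest in KO replicate 4 and highest in WT replicate 4. Macrophage markers summed to 139 to 260 CPM in KO bone and 164 to 308 CPM in WT bone, and T and NK cell markers to 10.7 to 32.7 CPM in KO bone and 12.7 to 36.9 CPM in WT bone, with Marco, a macrophage marker, at 0 in at least 1 library. Markers of osteoclasts, a second source of Itgb3, summed to 808 to 1112 CPM in KO bone and 732 to 1172 CPM in WT bone. Their sum was highest in WT replicate 4 and lowest in WT replicate 1, and their part in the level of Itgb3 was not tested. With a score of marrow markers (neutrophil, erythroid and B cell) as a covariate, edgeR called Pf4 alone of the 9 genes, at a log2 fold change of 0.99 (adjusted p = 0.0272), where 4.26% of all genes were called higher and 7.02% in all. With a score of muscle markers as the covariate it called 7 of the 9, all but Gp1ba and Itgb3, at a median log2 fold change of 1.17 over the 9 (edgeR, adjusted p = 0.0958 for Gp1ba and 0.054 for Itgb3), where 1.6% of all genes were called higher and 2.75% in all. The muscle score is set largely by the replicates numbered 4, at 1.13 in KO replicate 4 and -1.60 in WT replicate 4, with the other 6 between -0.13 and 0.41. The same limit holds for the marrow score, at -1.01 in KO replicate 4 and 1.29 in WT replicate 4, with the other 6 between -0.27 and 0.40. Because the 9 genes moved together, the counts of members called in these fits are not counts of independent genes.

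**Figure D3:**
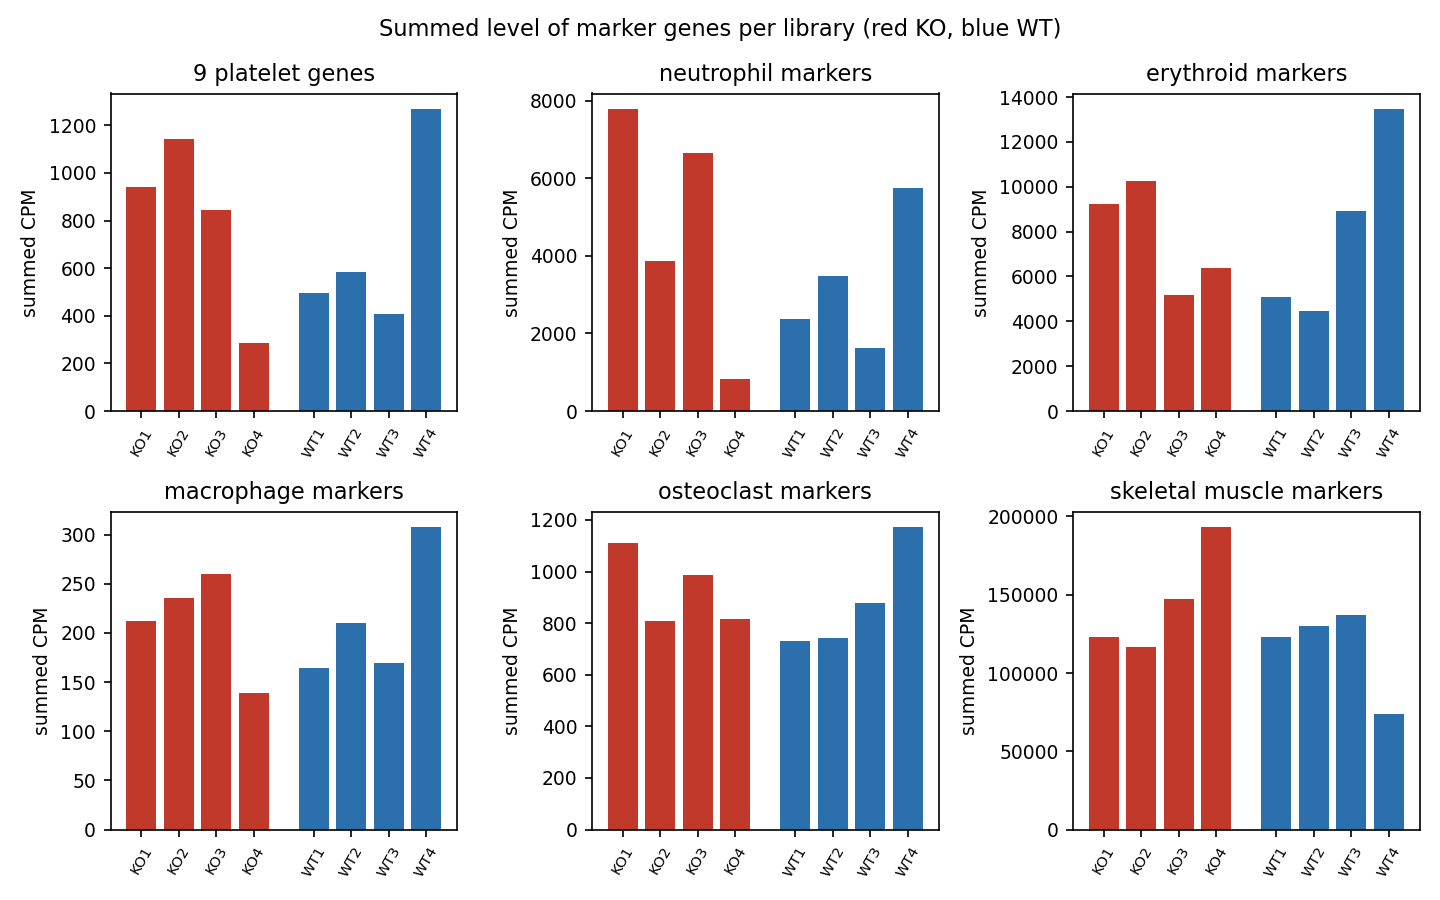
Summed level (CPM, linear axis from 0) of the 9 platelet genes and of marker genes of 5 other cell types in each library, KO in red and WT in blue. The platelet and neutrophil sums are both lowest in KO replicate 4, where the muscle sum is highest at 193189 CPM.

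The 9 genes varied together from library to library, but not in fixed proportions: ratios between members ranged up to 2.70-fold over the 8 libraries, for Pf4 over Gp1ba. Over the 8 libraries the 36 pairs of members correlated at a median Pearson r of 0.97 on the log2 CPM scale, with a range of 0.81 to 0.99. These correlations describe 8 libraries whose blood and muscle markers also differed. Gp1ba was the loosest member: its highest r with another member was 0.92, while pairs without it had an r of 0.94 or more. The chains of the fibrinogen receptor kept a ratio of Itga2b to Itgb3 of 1.15 ± 0.258 in KO bone and 1.19 ± 0.0754 in WT bone (SD, n = 4 each), and the groups overlapped.

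The ratio of Pf4 to Ppbp was 0.474, 0.462, 0.427 and 0.459 in KO replicates 1 to 4, against 0.334, 0.297, 0.317 and 0.336 in WT replicates 1 to 4. All 4 KO libraries were above all 4 WT libraries, including the replicates numbered 4, although the level of each gene varied more than 4-fold. The means were 0.456 ± 0.0200 in KO bone and 0.321 ± 0.0180 in WT bone, a log2 difference of 0.51. Among all other genes tested, 0.235% had a ratio to Ppbp whose groups did not overlap, and 1.08% had such a ratio to Pf4. These shares do not show how rare the pair is. Pf4 and Ppbp crossed over in the replicates numbered 4, so their ratio to a gene that does not follow them tends to overlap by construction. A nearer reference is the 36 ratios of members, of which 4, or 11.1%, did not overlap, this one included. Over 20 fits, the one with all libraries and those with other settings or fewer libraries, the log2 fold change of Pf4 exceeded that of Ppbp by 0.46 to 0.55. Library scaling acts on both genes alike and cancels in this difference. The fits also reuse the libraries in which the pair was picked, so the narrow range is no separate support. Pf4 has 721 bases of exon and Ppbp has 1083, and with length and GC trends removed the excess was 0.55. This pair was picked after all 36 ratios had been seen, so no test is given for it.

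Of the 36 ratios, 4 had groups that did not overlap, or 11.1%, where the levels of single genes did not overlap for 13.1% of all genes. All 4 involved Pf4 or Ppbp, and since the ratios share genes they are not independent of each other. Pf4 over Gp1bb was 3.70 ± 0.226 in KO bone and 2.93 ± 0.0981 in WT bone (SD, n = 4 each). Pf4 over Gp5 was 3.72 ± 0.415 in KO bone and 2.82 ± 0.183 in WT bone. Ppbp over Gp1bb ran the other way, at 8.13 ± 0.308 in KO bone and 9.15 ± 0.279 in WT bone, a log2 difference of -0.17. Ratios within a library describe relative levels, and they do not say which of the 2 genes differed. In those with Gp1bb, reads shared with overlapping genes may play a part, which was not tested.

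**Figure D4:**
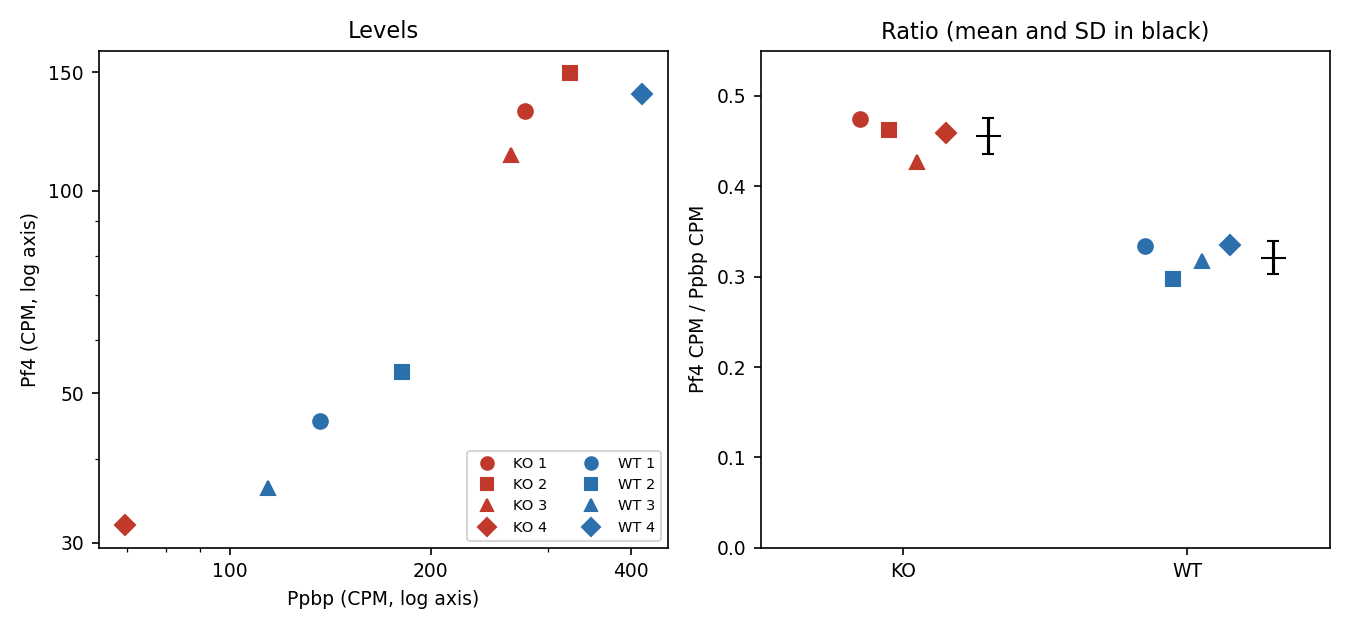
Left, Pf4 against Ppbp (CPM, log axes) in each library; right, the ratio of Pf4 to Ppbp by genotype, with mean and SD in black. The KO libraries (red) have ratios of 0.427 to 0.474 and the WT libraries (blue) 0.297 to 0.336, from the lowest level of both genes to the highest.

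Among the genes most like the platelet genes was Kcnj5, which encodes another subunit of the channel family to which Girk3 belongs. Likeness was measured as Pearson's r, over the 8 libraries, between a gene's log2 CPM and the mean of the 9 scaled members, for 14664 genes with a mean of at least 1 CPM. Kcnj5 (ENSMUSG00000032034, chr9:32314707-32344350) had an r of 0.995, first in the ranking but level with Ptgs1 at 0.994. With any 1 library left out its r was 0.992 or more and its rank between 1 and 3. It ranked 4 with group means removed (r = 0.995, against 0.996 for Ly6g6f) and 3 without the replicates numbered 4 (r = 0.993). Kcnj5 stood at 8.26, 11.2, 6.59 and 2.43 CPM in KO replicates 1 to 4, from 257, 381, 210 and 64 counts, against 4.28, 5.31, 3.14 and 11.6 CPM in WT replicates 1 to 4, from 146, 174, 93 and 500 counts. It was low in KO replicate 4 and high in WT replicate 4 as the platelet genes were, and its groups overlapped. Its means were 7.12 ± 3.66 CPM in KO bone and 6.09 ± 3.79 CPM in WT bone (SD, n = 4 each), and the fitted log2 difference was 0.22 with an SE of 0.48 (adjusted p = 0.853 by edgeR). Of the other channel subunits, Kcnj3 had an r of -0.43 at 1.27 ± 0.685 CPM in KO bone and 1.10 ± 0.144 CPM in WT bone, and Kcnj6 and Kcnj9 were below the filter. Each r is a description of the same 8 libraries, whose blood and muscle markers also differed.

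The other genes of highest likeness were mostly ones known from platelets. Ptgs1 (r = 0.994) encodes cyclooxygenase 1, the source of platelet thromboxane, and Alox12 (r = 0.989) encodes the platelet 12-lipoxygenase. Rgs18 (r = 0.992) encodes a regulator that limits G protein signalling in platelets, and Gnaz (r = 0.988) encodes a G protein alpha subunit of platelets. Clec1b (r = 0.985) encodes the podoplanin receptor CLEC-2, and Ly6g6f (r = 0.988) encodes a platelet surface protein. Inafm2 (r = 0.993), Ubash3b (r = 0.989) and Haus3 (r = 0.987) completed the first 10. Of these 10 genes, 6 stood in the lists of megakaryocyte and platelet genes described next. An r of 0.95 or more was reached by 76 genes, 0.518% of those ranked.

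**Figure D5:**
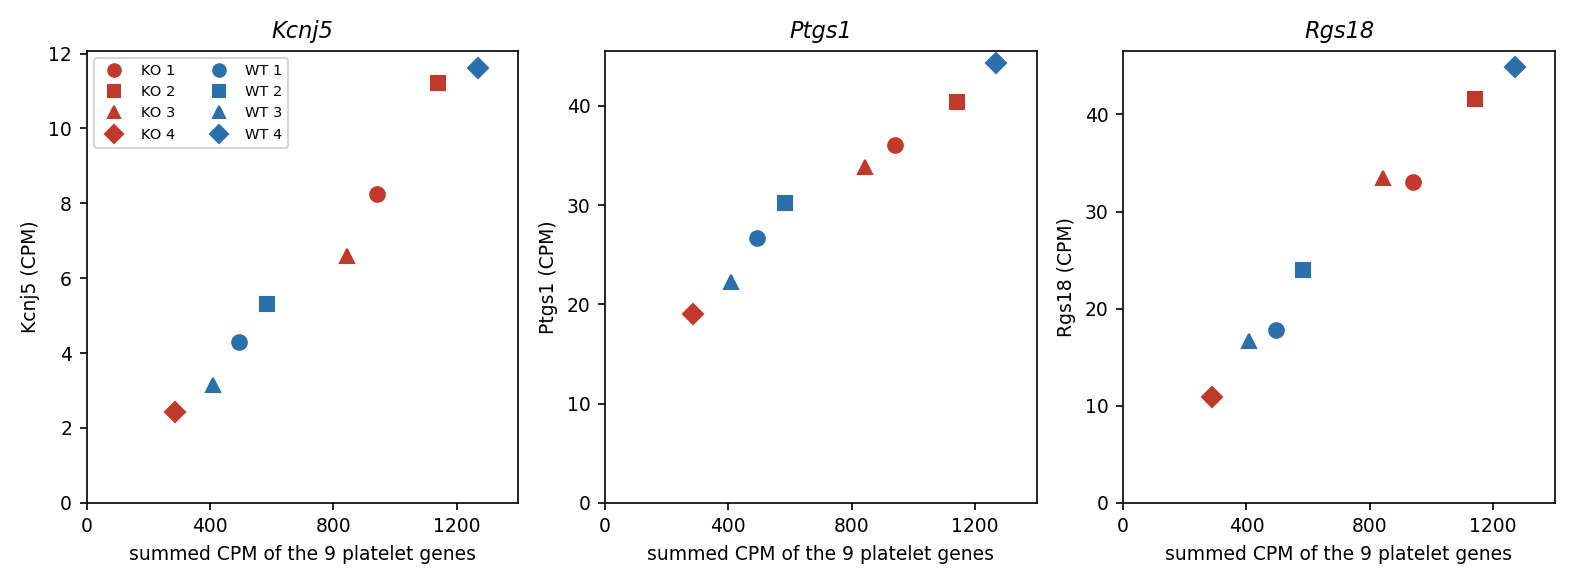
Level of Kcnj5, Ptgs1 and Rgs18 (CPM, linear axes from 0) against the summed level of the 9 platelet genes in each library, KO in red and WT in blue. KO replicate 4 is at the lower left and WT replicate 4 at the upper right of each panel, and KO and WT libraries lie along 1 line.

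Other genes of the lineage were examined in 8 lists, which together hold 143 genes, of which 142 passed the filter. edgeR called 0 of the 142, against 0.0115% of all genes. At an unadjusted p under 0.05, 7 were higher and 7 lower in KO bone, 9.86% of the lists' genes against 18.2% of all genes. DESeq2 called 3 of the 142, Tyk2, Jam3 and Pdgfa, against 6.48% of the genes it tested. The 3 called by limma-voom, Vamp8, Myl9 and Gng11, stood against 4.04% of all genes. Without the replicates numbered 4, edgeR called 12 of the 142 higher in KO bone, against 1.61% of all genes, and 0 lower, against 1.01%. For genes that follow the 9 members, leaving out these libraries tends to raise the difference by construction, so this count shows no separate rise. Groups did not overlap for 6 of the 142, against 13.1% of all genes. An r of 0.9 or more with the 9 members was reached by 44 of the 142, against 379 of the 17441 genes tested outside the members.

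The 15 transcription factors had a negative log2 fold change in 14 cases, where 51.4% of all genes did, with a median of -0.19. That median was -0.07 without the replicates numbered 4 and 0.0082 with the muscle score. All 4 with an unadjusted p under 0.05, a level reached by 18.2% of all genes, were lower in KO bone, and the smallest p belonged to Zfpm1 and Runx1. Zfpm1, which encodes FOG1, averaged 43.4 ± 9.21 CPM in KO bone and 72.7 ± 28.0 CPM in WT bone (SD, n = 4 each; edgeR, adjusted p = 0.162). Runx1, a factor needed to form megakaryocytes, averaged 26.3 ± 5.10 CPM in KO bone and 36.9 ± 7.25 CPM in WT bone (edgeR, adjusted p = 0.195). Both factors act in other blood cells as well, and neither followed the platelet genes closely (r = 0.39 for Zfpm1 and 0.61 for Runx1). Nfe2, the factor of proplatelet formation, followed them more closely (r = 0.897), at 71.3 ± 23.2 CPM in KO bone and 73.3 ± 30.5 CPM in WT bone (edgeR, adjusted p = 0.963). Over the 15 factors r ran from -0.904 for Mef2c to 0.902 for Lyl1, the only one of at least 0.9.

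The thrombopoietin list of 9 genes had a median log2 fold change of -0.04. Tyk2, a Janus kinase, stood at 28.4, 29.6, 29.0 and 25.2 CPM in KO replicates 1 to 4, against 35.0, 43.7, 34.6 and 43.4 CPM in WT replicates 1 to 4. Its groups did not overlap, and it did not pass the threshold in edgeR (log2 fold change -0.48, adjusted p = 0.094) but did in DESeq2 (adjusted p = 0.016) and with the marrow score (edgeR, adjusted p = 0.0303). Sh2b3, an adaptor that restrains thrombopoietin signalling, had a log2 fold change of -0.26 (edgeR, adjusted p = 0.292).

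The 25 other platelet receptors had a median log2 fold change of 0.04, with 14 positive and 11 negative estimates, and 12 of them had an r of 0.9 or more with the members. Jam3, a junction molecule, averaged 16.1 ± 2.76 CPM in KO bone and 11.1 ± 0.779 CPM in WT bone, and its groups did not overlap (adjusted p = 0.107 in edgeR, 0.0241 in DESeq2 and 0.0475 in edgeR with the marrow score). Esam, another adhesion molecule, averaged 56.3 ± 1.24 CPM in KO bone and 46.6 ± 3.82 CPM in WT bone, again without overlap (edgeR, adjusted p = 0.189). Both are also made by endothelium, and their r with the members was low, at -0.05 for Jam3 and 0.28 for Esam. Endothelial markers, of which Esam is 1, summed to 759 to 963 CPM in KO bone and 783 to 872 CPM in WT bone, and their part in these values was not tested. F2rl2, a protease-activated receptor of mouse platelets, followed the members with an r of 0.98, at 14.2 ± 6.42 CPM in KO bone and 13.9 ± 8.39 CPM in WT bone (edgeR, adjusted p = 0.983). In this list r went down to -0.73, for Itgb1.

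The 18 genes of granule cargo had a median log2 fold change of -0.02. Pdgfa, a growth factor that many cells of bone make, stood at 105, 69.4, 77.7 and 82.0 CPM in KO replicates 1 to 4, against 57.6, 61.2, 58.8 and 49.7 CPM in WT replicates 1 to 4. Its groups did not overlap and its r with the members was -0.06 (log2 fold change 0.55, adjusted p = 0.0999 in edgeR, 0.0169 in DESeq2 and 0.0355 in edgeR with the marrow score). Timp3, a metalloprotease inhibitor of the matrix, averaged 61.6 ± 16.3 CPM in KO bone and 82.9 ± 14.4 CPM in WT bone (edgeR, adjusted p = 0.314). Tgfb1, which platelets store and bone matrix holds, followed the members with an r of 0.97, at 72.0 ± 20.2 CPM in KO bone and 70.3 ± 24.5 CPM in WT bone (edgeR, adjusted p = 0.964). The lowest r among these 18 genes was -0.65, for Pdgfb. The 15 genes of granule formation and release had a median of -0.12, and the 14 cytoskeleton genes had a median of -0.28, which was -0.02 without WT replicate 4 and 0.01 with the muscle score. Vamp8, the main vesicle SNARE of platelet secretion, had a log2 fold change of 0.48 (adjusted p = 0.235 in edgeR and 0.0481 in limma-voom), and Vps33b, needed to build alpha granules, had -0.31 (edgeR, adjusted p = 0.336). Myl9, a myosin light chain that acts in proplatelet formation, had 0.44 (adjusted p = 0.234 in edgeR and 0.0472 in limma-voom), and Vcl, which encodes vinculin, had -0.54 (edgeR, adjusted p = 0.271).

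The 28 genes of integrin signalling had a median log2 fold change of 0.04, and 15 of them had an r of 0.9 or more with the members. Orai1, the store-operated calcium channel, averaged 34.8 ± 5.58 CPM in KO bone and 27.8 ± 1.54 CPM in WT bone (edgeR, adjusted p = 0.233). Gucy1a1, a subunit of the nitric oxide receptor, averaged 21.5 ± 1.90 CPM in KO bone and 19.2 ± 2.24 CPM in WT bone (edgeR, adjusted p = 0.531). The 18 remaining maturation genes that passed the filter had a median of 0.06. Gng11, a G protein gamma subunit, had a log2 fold change of 0.61 (adjusted p = 0.159 in edgeR and 0.0479 in limma-voom), and Trim58, an erythroid and platelet ubiquitin ligase, had -0.96 at 5.19 ± 2.12 CPM in KO bone and 10.1 ± 4.71 CPM in WT bone (edgeR, adjusted p = 0.198).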

How the data were processed

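RNA sequencing was carried out on femoral shaft bone of 4 KO and 4 WT mice. The deposited table holds raw counts of reads for each Ensembl gene ID. Per the submitters' processing notes, bcl2fastq 2.17, STAR 2.5.2b and featureCounts of Subread 1.5.2 were used with genome build mm10. Not given in the sources used here are the annotation release, the strand setting and how multi-mapping reads were treated, so reads of overlapping genes cannot be told apart. The NEBNext Ultra II RNA kit was used, per the labels' protocols.

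Groups and replicate numbers came from the sample titles. Symbols, exon lengths and positions came from GENCODE M21 on GRCm38, which matched 49056 of 49315 IDs. Libraries of 30087749 to 36553713 counts were filtered with filterByExpr, scaled with TMM and tested with edgeR 4.0.16 (robust quasi-likelihood, Benjamini-Hochberg over 17450 genes, threshold 0.05) in R 4.3.3. Log2 CPM used a prior count of 2. No 2 libraries agreed within sampling noise, so each counted as 1 replicate. Alternatives were DESeq2 1.42.0, limma-voom with quality weights (limma 3.58.1), other scalings and filters, a replicate block, marker scores as covariates, removal of length and GC trends, and leaving out libraries. The edgeR steps were tested on simulated data.

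The 9 genes and all lists were chosen with earlier results of these data known. Named beside the 9 were the 2 genes of each list with the smallest p, the 10 genes most like the 9, Kcnj9 and genes that overlap a member. Nfe2, Lyl1, Mef2c, F2rl2, Itgb1, Tgfb1, Pdgfb, Kcnj3, Kcnj6, Marco and the ratios of members were chosen after their values were seen. Start regions were searched with the words printed, on both strands. The result of 1 further gene that was examined is not reported here.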

Additional observations from a re-analysis of the deposited data

Results flagged for a closer look

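Among the 18 groups of 4 formed by the 9 platelet genes, 2 held a library far from the other 3 of its genotype. Gp1bb stood at 8.57 CPM in KO replicate 4, with the next lowest KO library at 33.1 CPM. Pf4 stood at 139 CPM in WT replicate 4, with the next highest WT library at 53.8 CPM. Over all 100 groups examined, 6 were marked, and chance marks about 1 group in 20.

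Zfpm1 stood at 57.1 CPM in KO replicate 2, with the next highest KO library at 39.8 CPM. Orai1 stood at 26.5 CPM in KO replicate 2, with the next lowest KO library at 37.1 CPM. Kcnj9, the targeted gene, stood at 0.534 CPM in WT replicate 4, with the next highest WT library at 0.205 CPM. The 12 B cell markers summed to 217 CPM in KO replicate 1, with the next highest KO library at 134 CPM.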

How the results depend on the processing

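The count of genes called between KO and WT bone was 2 with all libraries and edgeR. It was 992 with DESeq2, 705 with limma-voom, 71 without the low-count filter, 5 with length and GC trends removed, 1225 with the marrow score, 480 with the muscle score, 458 without the replicates numbered 4, and 2 to 4 with 1 library left out. Of the 9 platelet genes, 0 were called by edgeR, 1 with the marrow score, 7 with the muscle score and 7 without the replicates numbered 4, and 0 with any 1 library left out. Their median log2 fold change, 0.24, became 1.17 with the muscle score, 1.00 without the replicates numbered 4, and -0.01 to 0.70 with 1 library left out; scaling by library totals alone gave 0.13. The sign of Gp1ba, -0.20, turned to 0.085 with limma-voom, 0.011 with the marrow score, 0.41 with the muscle score and 0.29 without the replicates numbered 4, and its range with 1 library left out was -0.36 to 0.12. Ppbp became -0.029 with length and GC trends removed and ranged from -0.064 to 0.70 with 1 library left out. With 1 library left out Pf4 ranged from 0.42 to 1.23, Gp1bb from 0.078 to 0.88, Gp9 from 0.038 to 0.69, Treml1 from 0.0074 to 0.78, Gp5 from -0.0092 to 0.77, Itga2b from -0.091 to 0.50, Itgb3 from -0.031 to 0.63 and Kcnj5 from -0.083 to 0.75. The cause of these shifts was not tested.

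Same-numbered KO and WT libraries deviated from their group means with correlations of -0.19, -0.17, -0.25 and -0.57. The labels do not tie the numbers to litters or days, and these values cannot show whether same-numbered mice were paired. A fit with the replicate block called 1 gene and 0 of the 9. Depth limits Kcnj9, at 23 counts or fewer, more than the 9 genes, at 205 counts or more.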
